A study of Mus musculus with 14 samples.

Results

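The EMT transcription factors described here are 10 genes, Snai1, Snai2, Snai3, Twist1, Twist2, Zeb1, Zeb2, Hmga2, Sox4 and Foxc2. They were chosen by name, with earlier results of these data known, out of 23284 genes in the expression tables. The cells were EpH4, a mouse mammary gland epithelial line, and EpRas, its H-Ras-transformed derivative. Both lines were left untreated or treated with 1 ng/ml TGF-β3 for 48 h, with 2 libraries in each of the 4 groups. A second set of 6 libraries came from EpRas cells alone, in which the ETS family transcription factors Etv4 and Etv5 were knocked down together. These cells received the negative control siNC, siRNA pair 1 or siRNA pair 2 and were left untreated or given the same TGF-β treatment, and every condition had 1 library. EpH4 cells were cultured in 10% and EpRas cells in 4% fetal bovine serum, so that a difference between the lines and a difference in serum cannot be told apart, and each genotype was represented by a single line.

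In epithelial-mesenchymal transition (EMT), epithelial cells lose cell-cell junctions and apical-basal polarity and gain motility. Snail (Snai1), Slug (Snai2) and the ZEB proteins are zinc finger repressors that bind E-box sequences in epithelial genes such as Cdh1, and the Twist proteins are basic helix-loop-helix factors that dimerize with E proteins and also act on E-boxes. TGF-β signals through Smad proteins and is known to induce several of these factors, while Hmga2, an architectural chromatin protein, and Sox4, an HMG-box factor, have been placed upstream of or beside them.

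Expression was measured as FPKM, in which the fragments of a gene are divided by its exon length and by the size of the library. The FPKM of these genes were whole multiples of the value of 1 read, within a tolerance of 0.02 reads, so that the reads behind each value could be recovered (for Hmga2 only in the untransfected cells). Relative depth ranged from 0.609 to 1.36 over the untransfected libraries and from 1 to 1.74 over the siRNA libraries, and log2 values of replicates correlated at 0.912 to 0.982 across genes. The epithelial marker list (6 genes) summed to between 2377 and 8173 FPKM in the untransfected libraries. Its sums were 4517 to 5780 FPKM in untreated EpH4 and 3949 to 5047 in untreated EpRas cells. With TGF-β they were 7732 to 8173 and 2377 to 4031 FPKM. In the untransfected libraries the 3 endothelial markers summed to at most 0.481 FPKM. The 3 leukocyte markers summed to between 1.504 and 8.49 FPKM, with Ptprc at 0 in all 8 libraries, Cd68 between 0.293 and 7.13 FPKM and Csf1r between 0.103 and 6.23 FPKM. As the RNA came from bulk cultures, fewer cells expressing a gene and less RNA in each cell could not be told apart.

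The sequences upstream of Snai1, Twist1 and Sox4 are shown because these members had a called response to TGF-β in the test of the genes reaching 5 FPKM, in one set of libraries or the other. They were taken from a set of promoter windows at RefSeq starts (GRCm38.p6), in which 6 of the 10 genes had a window. The set used held none for Snai2, Snai3, Zeb1 and Foxc2, which does not show that RefSeq lacks these genes. Capitals mark matches, on either strand, to the Snail-type E-box CACCTG, the ETS core CGGAA and the Smad element CAGAC. The runs are chr2:167537945-167538194 on the plus strand for Snai1 (250 bases), chr12:33957421-33957670 on the plus strand for Twist1 (250 bases) and chr13:28953714-28953949 on the minus strand for Sox4 (236 bases, ending before the annotated gene).
Snai1: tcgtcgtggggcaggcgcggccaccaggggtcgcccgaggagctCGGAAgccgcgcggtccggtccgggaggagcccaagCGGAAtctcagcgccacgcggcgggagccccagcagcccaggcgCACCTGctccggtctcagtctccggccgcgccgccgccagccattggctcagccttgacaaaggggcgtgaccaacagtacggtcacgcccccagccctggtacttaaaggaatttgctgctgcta
Twist1: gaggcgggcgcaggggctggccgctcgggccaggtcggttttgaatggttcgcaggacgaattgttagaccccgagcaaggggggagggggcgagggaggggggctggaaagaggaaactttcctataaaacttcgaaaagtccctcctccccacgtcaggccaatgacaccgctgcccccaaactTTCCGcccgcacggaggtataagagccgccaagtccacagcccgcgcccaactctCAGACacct
Sox4: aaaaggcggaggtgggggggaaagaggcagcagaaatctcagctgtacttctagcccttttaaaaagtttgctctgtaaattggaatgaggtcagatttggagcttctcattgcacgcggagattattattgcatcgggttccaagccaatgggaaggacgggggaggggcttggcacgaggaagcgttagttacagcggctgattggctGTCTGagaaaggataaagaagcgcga
The Snai1 run held 70.0% C and G, with ETS cores at -206 and -170 and the E-box at -126 from the RefSeq start. The Twist1 run held 62.4% C and G, with an ETS core at -64 and a Smad element at -9. The Sox4 run held 50.0% C and G, with a Smad element at -40, and an ETS core at -12 lay past its end. Over the 250 bases upstream of all 32851 RefSeq starts in the set used, 17.2% of windows held CACCTG, 25.2% CGGAA and 42.2% CAGAC. The AP-1 site TGANTCA, in 6.75% of windows, had no match in these 3 genes.

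Of the 10 factors, 6 reached 5 FPKM in at least 1 untransfected library and 4 stayed lower. Hmga2, Sox4, Twist1 and Snai1 were the most highly expressed, and the order of their levels differed between the groups. In untreated EpH4 cells the group means ran from Sox4 at 40.3 ± 5.34 FPKM (SD, n = 2) through Twist1 at 15.9 ± 2.90, Hmga2 at 11.9 ± 4.63 and Snai1 at 9.87 ± 3.44, and each of the last 3 overlapped with its neighbour. In untreated EpRas cells they ran from Hmga2 at 50.5 ± 11.3 through Sox4 at 38.1 ± 4.67, Twist1 at 25.1 ± 2.58 and Snai1 at 18.1 ± 1.51 FPKM, and no neighbours in this order overlapped. Foxc2, a forkhead factor of mesenchyme and lymphatic endothelium, was barely detected: EpH4 cells had a single read over 4 libraries, where 3 reads would have given 0.149 to 0.281 FPKM in the libraries with none, and EpRas cells lay at 0.222 and 0.536 FPKM untreated and at 0.236 and 0.607 with TGF-β, from 2, 9, 3 and 6 reads. Zeb1 had 1 read in the untreated EpH4 libraries together. Twist2 had no read in the EpRas libraries with TGF-β, where 3 reads would have given 0.536 and 0.690 FPKM. In the annotation (GENCODE vM21, mm10), Foxc2 (chr8:121116171-121118895, plus strand) and Snai3 (chr8:122454208-122460733, minus strand) lie inside the readthrough gene Gm20388, which can share reads with them.

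**Figure D1:**
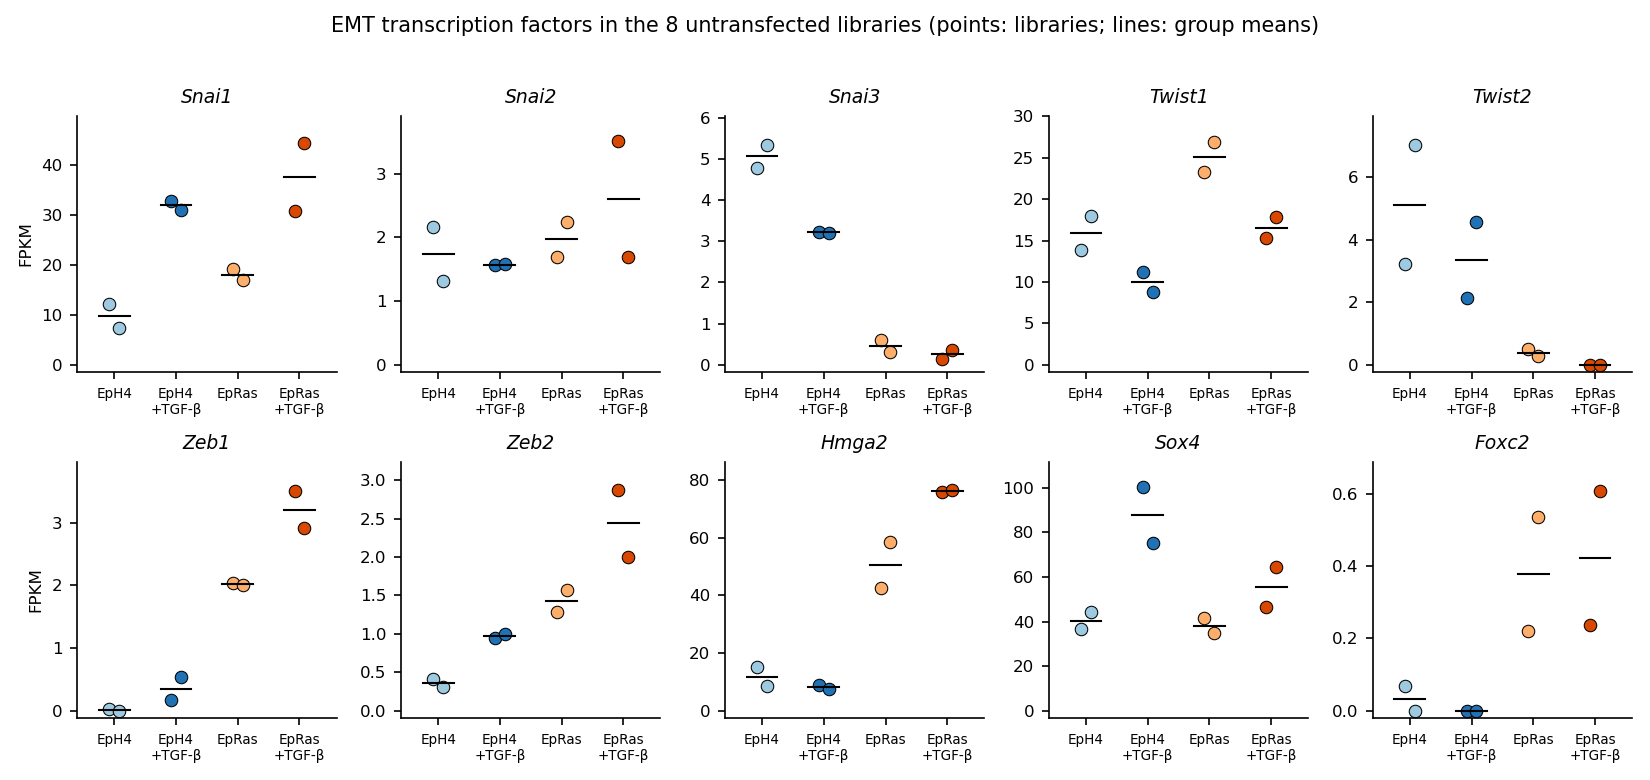
FPKM of the 10 EMT transcription factors (axes in FPKM, 1 panel for each gene with its own scale) in the 8 untransfected libraries, with points for libraries and bars for the group mean. Hmga2 lies between 42.5 and 76.6 FPKM in the EpRas libraries and at no more than 15.2 in the EpH4 libraries, whereas Snai3 and Twist2 are higher in every EpH4 library than in any EpRas library.

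The first comparison asked how Ras transformation changed the factors in the absence of TGF-β. Hmga2, Zeb1 and Zeb2 were higher in EpRas cells, Snai3 and Twist2 were lower, and Snai1, Snai2, Twist1 and Sox4 did not pass the test. Of the 6 factors reaching 5 FPKM, 3 were called at an adjusted p under 0.05 (limma on log2(FPKM + 1), Benjamini-Hochberg), 1 higher and 2 lower, while 17.6% of the 9100 genes tested were called. With the filter lowered to 1 FPKM, 5 of 9 factors were called against 17.8% of genes. Snai3 and Twist2 reached 5 FPKM only in EpH4 cells, and Zeb1 and Zeb2 reached 1 FPKM only in EpRas cells, so that these 4 entered the test through the line where they were high and the counts, with and without TGF-β, do not set the factors apart from other genes. The basal marker list (4 genes) moved with the line, summing to between 334 and 395 FPKM in untreated EpH4 and between 105 and 117 FPKM in untreated EpRas cells, mostly from Krt14, with Krt5 at or near 0 in both and Trp63 at 7.37 and 8.60 FPKM in EpH4 against 0 and 0.197 in EpRas cells. With TGF-β the sums were between 798 and 864 FPKM in EpH4 and between 64.1 and 66.8 FPKM in EpRas cells. The fibroblast list (7 genes) summed to between 22.7 and 26.8 FPKM in untreated EpH4 and between 12.3 and 13.6 in untreated EpRas cells. With TGF-β its sums were 222 to 247 and 8.42 to 11.1 FPKM. Pdgfra and Pdgfrb of this list were higher in untreated EpRas cells. The leukocyte list lay between 1.504 and 2.09 FPKM in untreated EpH4 and between 4.50 and 5.21 in untreated EpRas cells, and overlapped with TGF-β. The part of these markers in the results was not tested.

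Hmga2 (chr10:120361275-120476469, minus strand) measured 15.2 and 8.62 FPKM in EpH4 cells and 42.5 and 58.4 in EpRas cells. The groups did not overlap, the ratio of reads was 4.64 (95% Clopper-Pearson interval 4.24 to 5.08, for counting error only, as for all intervals here), and the log2 difference was 2.03 ± 0.27 (SE; limma adjusted p = 0.00286). Zeb1 measured 0.0304 and 0 FPKM in EpH4 cells, from 1 read and none, and 2.04 and 2.01 in EpRas cells, from 41 and 75 reads. Its expression was thus close to the detection limit in EpH4 cells, the ratio of reads was 157 with an interval of 27.6 to 6248, and the difference on the log2(FPKM + 1) scale, which understates changes of low genes, was 1.58 ± 0.18 (limma adjusted p = 0.00136). Zeb2 (chr2:44983632-45117395, minus strand), the paralog of Zeb1, measured 0.420 and 0.310 FPKM in EpH4 cells and 1.29 and 1.57 in EpRas cells, each from 22 to 93 reads. The reads differed 4.12-fold (2.91 to 5.93) and the log2 difference was 0.83 ± 0.17 (limma adjusted p = 0.0173). The Zeb2 call was lost when any 1 of these 4 libraries was left out (adjusted p = 0.0599 to 0.0962), with a pseudocount of 5 FPKM (adjusted p = 0.108) and by a Tukey-Kramer test on FPKM.

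Snai3, a less studied paralog of Snai1, measured 4.79 and 5.34 FPKM in EpH4 cells but 0.604 and 0.325 in EpRas cells, from 3 reads in each EpRas library. EpRas cells thus had 9.18% of the EpH4 level, the reads were 12.1-fold lower (5.36 to 33.7), and the log2 difference was -2.05 ± 0.17 (limma adjusted p = 0.00032). Twist2 (chr1:91801461-91848028, plus strand), a paralog of Twist1, measured 3.22 and 7.01 FPKM in EpH4 cells and 0.503 and 0.271 in EpRas cells, from 2 reads in each EpRas library. The EpH4 libraries lay apart from each other, yet both were above the EpRas libraries. The log2 difference was -2.07 ± 0.36 (limma adjusted p = 0.00814), and the call was lost without EpRas replicate 2 (adjusted p = 0.0611) and by the Tukey-Kramer test.

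Snai1 (chr2:167538195-167542814, plus strand) measured 12.3 and 7.44 FPKM in EpH4 cells and 19.2 and 17.0 in EpRas cells. The EpRas libraries were both higher, but the log2 difference of 0.85 ± 0.26 did not pass the test (limma adjusted p = 0.0642), and it passed without EpH4 replicate 1 (adjusted p = 0.0408). Twist1 (chr12:33957671-33959829, plus strand) likewise was higher in both EpRas libraries, at 23.3 and 26.9 FPKM against 13.8 and 17.9, with a log2 difference of 0.64 ± 0.20 that did not pass (limma adjusted p = 0.0680). Sox4 (chr13:28948919-28953713, minus strand) lay at 36.6 and 44.1 FPKM in EpH4 cells and at 41.4 and 34.8 in EpRas cells. The Sox4 groups overlapped and differed by -0.08 ± 0.23 on the log2 scale (limma adjusted p = 0.850). Snai2 (chr16:14705852-14709385, plus strand), which is expressed in basal mammary cells, lay between 1.32 and 2.24 FPKM in these 4 libraries, and its groups overlapped as well (log2 difference 0.13 ± 0.27, limma adjusted p = 0.794).

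In the presence of TGF-β, the same comparison called 4 of the 6 factors (Hmga2 and Twist1 higher, Snai3 and Twist2 lower) against 21.3% of all genes tested, and 6 of 9 with the filter of 1 FPKM, adding Zeb1 and Zeb2, against 21.8%. Hmga2 measured 8.79 and 7.50 FPKM in EpH4 cells and 75.9 and 76.6 in EpRas cells. This was a 9.51-fold difference in reads (8.48 to 10.7), with a log2 difference of 3.08 ± 0.27 (limma adjusted p = 0.000287). Snai3 measured 3.23 and 3.20 FPKM in EpH4 cells and 0.143 and 0.368 in EpRas cells, from 1 and 2 reads. Its reads were 13.3-fold lower in EpRas cells (4.28 to 66.8) and the log2 difference was -1.75 ± 0.17 (limma adjusted p = 0.000446). Twist2 measured 2.12 and 4.57 FPKM in EpH4 cells against no read in EpRas cells, which was at least 5.46-fold lower when set against a floor of 3 reads in each EpRas library. Its fitted log2 difference was -2.06 ± 0.36 (limma adjusted p = 0.00636), and the Tukey-Kramer test did not call it.

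Zeb1 measured 0.168 and 0.538 FPKM in the EpH4 libraries with TGF-β and 3.50 and 2.91 in the EpRas libraries with TGF-β. The EpRas reads were 8.34-fold higher (5.37 to 13.5) and the log2 difference was 1.65 ± 0.18 (limma adjusted p = 0.000803). Zeb2 measured 0.953 and 0.997 FPKM against 2.87 and 2.01, with a log2 difference of 0.79 ± 0.17 (limma adjusted p = 0.0169). The call was lost without either of the EpH4 libraries (adjusted p = 0.106 and 0.0902), with a pseudocount of 5 FPKM (0.0585) and with only the groups compared (0.0625). Twist1 measured 11.2 and 8.77 FPKM in EpH4 cells and 15.3 and 17.9 in EpRas cells. The groups did not overlap, and the log2 difference of 0.68 ± 0.20 was just past the threshold (limma adjusted p = 0.0485), but it was lost in 16 of 21 alternatives, among them without any 1 of the 4 libraries (adjusted p = 0.0736 to 0.262). Snai1 groups overlapped, at 32.9 and 31.2 FPKM in EpH4 and 31.0 and 44.4 in EpRas cells (log2 difference 0.21 ± 0.26, limma adjusted p = 0.602). Sox4 was lower in both EpRas libraries, at 46.4 and 64.4 FPKM against 100.2 and 75.2, but did not pass (log2 difference -0.66 ± 0.23, limma adjusted p = 0.0842), and it passed without EpRas replicate 2 (adjusted p = 0.0450). Snai2 lay at 1.56 and 1.58 FPKM in EpH4 and at 3.51 and 1.69 in EpRas cells, without a call (limma adjusted p = 0.291).

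**Figure D2:**
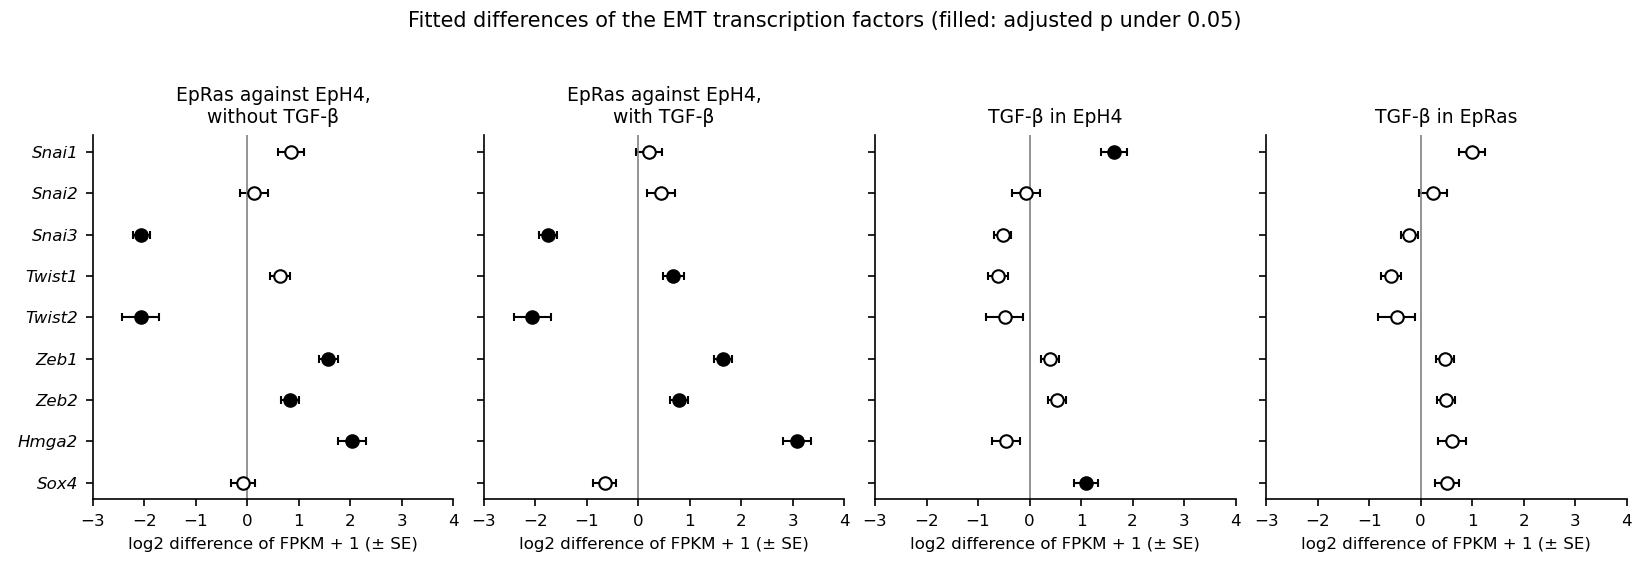
Differences on the log2(FPKM + 1) scale with their standard errors (horizontal axis, limma) for the EMT transcription factors in the comparisons of the untransfected libraries, with filled points for an adjusted p under 0.05. The Hmga2 difference between the lines is 2.03 without and 3.08 with TGF-β, and the TGF-β effect is called for Snai1 (1.64) and Sox4 (1.09) in EpH4 cells only.

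The effect of TGF-β was then compared within each line. In EpH4 cells, Snai1 and Sox4 were increased, and these were the 2 called of the 6 factors, against 9.40% of genes, and the 2 called of 9 with the lower filter, against 8.85%. Snai1 rose from 12.3 and 7.44 FPKM to 32.9 and 31.2. The reads rose 3.35-fold (2.82 to 4.00), with a log2 difference of 1.64 ± 0.26 (limma adjusted p = 0.00909). Sox4 rose from 36.6 and 44.1 FPKM to 100.2 and 75.2, which was 2.08-fold in reads (1.95 to 2.22) and 1.09 ± 0.23 on the log2 scale (limma adjusted p = 0.0276). Each library with TGF-β was above each untreated library for both genes. The Sox4 call was lost with the replicate number as a block (limma adjusted p = 0.0607) and with only the groups compared (0.0504). With 2 libraries a group, the Snai1 call was lost without untreated EpH4 replicate 2 or either TGF-β-treated EpH4 library (adjusted p = 0.0515 to 0.0889), and the Sox4 call without any 1 of the 4 EpH4 libraries or either untreated EpRas library (adjusted p = 0.0540 to 0.212). The summed level of the fibroblast marker list (7 genes, of which Thy1 was at 0 and Col1a1 the highest) moved with these values, from between 22.7 and 26.8 FPKM in untreated EpH4 cells to between 222 and 247 with TGF-β, whereas in EpRas cells it lay between 8.42 and 13.6. In EpH4 cells the basal sum was also higher with TGF-β (sums given above), mostly from Krt14. Trp63 of that list was lower, at 4.64 and 5.52 FPKM against 7.37 and 8.60. The leukocyte sum went from between 1.504 and 2.09 FPKM to between 6.52 and 8.49, with Ptprc at 0. Csf1r rose from 0.185 and 0.103 FPKM to 5.74 and 6.23, whereas Cd68 overlapped, at 1.90 and 1.40 against 0.293 and 2.75. The part of these markers in the result was not tested.

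The other factors did not pass the test in EpH4 cells. Zeb1 had 4 and 19 reads with TGF-β (0.168 and 0.538 FPKM) against 1 and none without, and Zeb2 lay at 0.953 and 0.997 FPKM against 0.420 and 0.310. The groups of both genes did not overlap, and their reads differed 30.2-fold (4.90 to 1243) and 2.74-fold (1.90 to 4.02), but on the log2(FPKM + 1) scale the differences were 0.40 ± 0.18 for Zeb1 and 0.53 ± 0.17 for Zeb2 (limma adjusted p = 0.239 and 0.117). Both were called with a pseudocount of 0.1 FPKM in place of 1 (adjusted p = 0.0453 and 0.0323). Twist1 lay lower in both libraries with TGF-β, at 11.2 and 8.77 FPKM against 13.8 and 17.9 (log2 difference -0.62 ± 0.20, limma adjusted p = 0.109). Snai3 also lay lower in both, at 3.23 and 3.20 FPKM against 4.79 and 5.34 (log2 difference -0.52 ± 0.17, limma adjusted p = 0.111), and a Tukey-Kramer test on FPKM called it. Hmga2, Twist2 and Snai2 groups overlapped (limma adjusted p = 0.365, 0.475 and 0.916).

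In EpRas cells, 0 of the 6 factors were called for the TGF-β effect and 0 of 9 with the lower filter, where 3.82% and 3.43% of genes were called. At an unadjusted p under 0.05 there were 2 of 6 and 4 of 9. A Tukey-Kramer test on FPKM called 1 of 6, which was Hmga2, and also Zeb1 among the lower factors. This test was run on the factors only, and no share of all genes is given for the unadjusted level. Neither count thus sets the factors apart from other genes. Snai1 measured 19.2 and 17.0 FPKM untreated and 31.0 and 44.4 with TGF-β (log2 difference 1.00 ± 0.26, limma adjusted p = 0.0993). Twist1 measured 23.3 and 26.9 FPKM untreated and 15.3 and 17.9 with TGF-β (log2 difference -0.57 ± 0.20, limma adjusted p = 0.215). Hmga2 measured 42.5 and 58.4 FPKM untreated and 75.9 and 76.6 with TGF-β (log2 difference 0.60 ± 0.27, limma adjusted p = 0.343). None of these 3 genes had groups that overlapped. The same held for Sox4 (41.4 and 34.8 against 46.4 and 64.4 FPKM, limma adjusted p = 0.344), Zeb1 (2.04 and 2.01 against 3.50 and 2.91, adjusted p = 0.264) and Zeb2 (1.29 and 1.57 against 2.87 and 2.01, adjusted p = 0.230). Twist2 had 0.503 and 0.271 FPKM untreated and no read with TGF-β (limma adjusted p = 0.611), and the Snai2 and Snai3 groups overlapped. How many of all genes had groups that did not overlap was not computed for either line. The lack of overlap thus does not set the factors apart from other genes.

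Whether the TGF-β effect differed between the lines was tested by the interaction term. It called 0 of 6 factors, and 0 of 9 with the lower filter, against 0.802% and 0.924% of genes, with 1 factor at an unadjusted p under 0.05. That factor was Hmga2, whose TGF-β effect was 1.06 ± 0.38 larger on the log2 scale in EpRas than in EpH4 cells (limma unadjusted p = 0.0267, adjusted p = 0.364). No share of all genes is given for the unadjusted level. For Snai1 the effect was smaller in EpRas cells by 0.64 ± 0.37 and for Sox4 by 0.58 ± 0.32, and neither difference passed (limma adjusted p = 0.574 and 0.567). The call of Snai1 and Sox4 in EpH4 cells alone thus does not show a difference between the lines.

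Genes that work with these factors were followed in 6 lists, written from general knowledge. The median log2 difference over all genes tested lay between -0.02 and 0.00, and the shares of all genes called were those given above, 17.6% and 21.3% between the lines without and with TGF-β and 9.40% and 3.82% for TGF-β in EpH4 and EpRas cells. Among 22 measured epithelial targets of the factors (junction, polarity and adhesion genes, and transcription and splicing regulators such as Vdr, Grhl2 and Esrp1), 11 were lower and 0 higher in untreated EpRas than EpH4 cells, with a median of -0.98 (Cldn4 -1.80, Cldn7 -1.73), and 19 were lower with TGF-β, with a median of -1.60 (Epcam -2.42, Marveld3 -2.21). TGF-β raised 4 of them in EpH4 cells (median 0.15), Vdr (1.44), Pkp2 (0.94), Cdh1 (0.79) and Dsp (0.60), and lowered 2 in EpRas cells (median -0.40), Marveld3 (-1.62) and Rab25 (-0.87). Among 13 mesenchymal genes, 6 were higher and 3 lower in untreated EpRas cells (median 0.22), with the intermediate filament Vim (9.13) and N-cadherin Cdh2 (4.91) higher and the matrix protein Postn (-5.34) lower. With TGF-β, 5 were higher and 7 lower in EpRas cells (median -0.66), with Vim (8.68) and Cdh2 (4.32) again higher and Postn (-6.97) and collagen Col1a1 (-6.09) lower. TGF-β raised 10 and lowered 1 of them in EpH4 cells (median 1.81), and raised 5 and lowered 1 in EpRas cells (median 0.40). Vim and Cdh2 lay at no more than 1.88 and 0.212 FPKM in the EpH4 libraries, so that they entered the test through EpRas cells, where they were high. Ocln of the epithelial targets likewise reached 5 FPKM only in EpH4 cells. The counts between the lines thus do not set these lists apart from other genes.

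Of 10 paralogs and dimerisation partners tested, 4 were lower in EpRas cells without TGF-β (median -0.49; among them Id2 -0.89, Foxc1 -0.84 and Prrx1 -0.77) and 4 with it (median -0.50; among them Id3 -2.39, Id2 -1.56 and Id1 -1.10). TGF-β lowered 2 of them in each line (medians -0.28 in EpH4 and -0.35 in EpRas cells), and Id2, an inhibitor of helix-loop-helix dimers, was lowered in both EpH4 (-1.39) and EpRas cells (-2.06). Of 14 corepressors tested, 1 was lower in untreated EpRas cells (the histone methyltransferase Suv39h1, -0.99; median -0.23). With TGF-β, 1 was higher and 2 were lower (median -0.16), and none was called for TGF-β in EpH4 or EpRas cells (medians -0.03 and 0.05, with 2 and 0 at an unadjusted p under 0.05). Of 13 genes for turnover of the Snail and Twist proteins, 1 was lower in untreated EpRas cells (the phosphatase Ctdspl, -0.75; median -0.01), and 1 was higher and 1 lower with TGF-β (median 0.02). None was called for TGF-β in EpH4 or EpRas cells (medians 0.01 and -0.06, with 4 and 3 at an unadjusted p under 0.05). For these unadjusted counts and those of the corepressors, no share of all genes is given. Among 11 TGF-β pathway genes, 1 was higher and 1 lower in untreated EpRas cells (median -0.16), and 0 were higher and 2 lower with TGF-β (median -0.39). TGF-β raised 5 and lowered 1 of them in EpH4 cells (median 0.14) and raised 3 and lowered 1 in EpRas cells (median 0.21), with Pmepa1 higher (2.06 and 1.17) and the receptor Tgfbr2 lower (-1.17 and -0.82) in both.

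In the siRNA libraries, the targeted genes were examined first. Etv4 measured 57.4 FPKM with siNC, 11.6 with pair 1 and 27.9 with pair 2 (20.2% and 48.5% of siNC), and with TGF-β 64.3, 12.6 and 18.9 (19.6% and 29.4%). Etv5 measured 8.85, 1.61 and 1.26 FPKM in the same order (18.3% and 14.2%), and with TGF-β 5.34, 1.24 and 1.203 (23.2% and 22.5%). The 2 pairs thus left different amounts of Etv4. As each condition had 1 library, the factors are given as ratios to siNC, without a test, and a factor is named as higher or lower where both pairs lay at least 1.5-fold from siNC in the same direction.

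**Figure D3:**
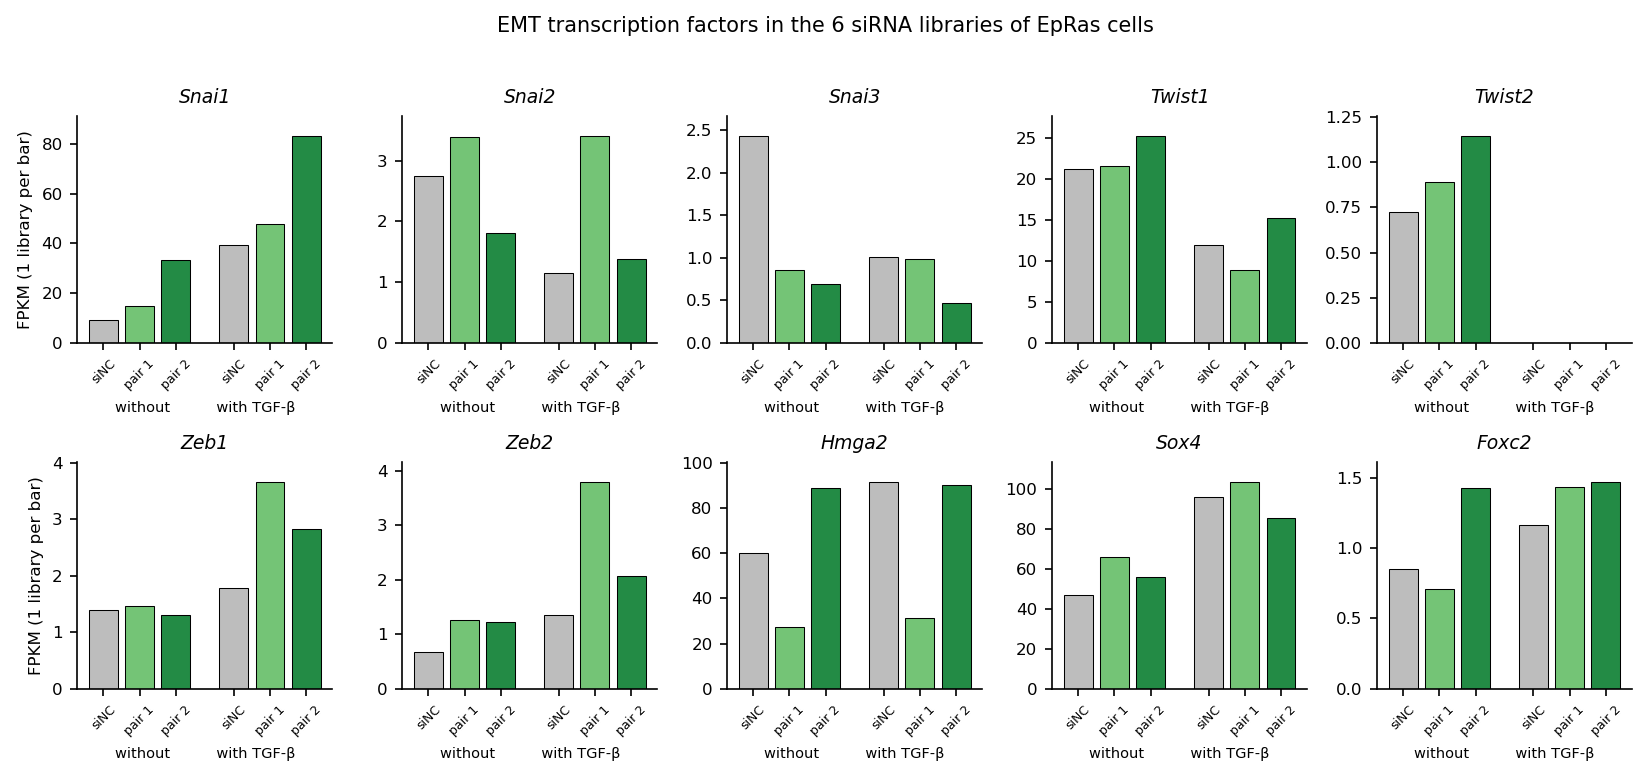
FPKM of the 10 EMT transcription factors in the 6 siRNA libraries of EpRas cells (axes in FPKM, 1 panel for each gene with its own scale), with 1 bar for each library. Snai1 runs from 9.14 FPKM with siNC to 83.0 with pair 2 and TGF-β, and Hmga2 is lower with pair 1 (27.5 and 31.5 FPKM) than in the other 4 libraries.

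Snai1 was higher with both pairs in the absence of TGF-β. It measured 9.14 FPKM with siNC (94 reads), 14.9 with pair 1 (208 reads) and 33.3 with pair 2 (436 reads), and the ratios to siNC were 1.63 (1.27 to 2.10) and 3.65 (2.91 to 4.61). It was the only 1 of the 4 factors reaching 5 FPKM to pass the rule without TGF-β, which 7.97% of such genes passed upward and 8.46% downward. With TGF-β, Snai1 measured 39.4 FPKM with siNC, 47.9 with pair 1 and 83.0 with pair 2, ratios of 1.21 (1.09 to 1.35) and 2.11 (1.91 to 2.32). Thus 0 of the 4 factors passed with TGF-β, against 6.66% of genes upward and 7.79% downward. Pair 2 gave the larger Snai1 ratio in both states, and left more Etv4 than pair 1. Zeb1 and Zeb2 with TGF-β had the larger ratio with pair 1. A relation of these ratios to the Etv4 left was not tested. The Etv5 ratios of the pairs overlapped in their counting intervals in both states (0.135 to 0.244 and 0.1002 to 0.197 without TGF-β, 0.166 to 0.319 and 0.157 to 0.315 with it). Markers of other cell types also moved with the knockdown. Without TGF-β the 4 basal markers summed to 109, 260 and 365 FPKM with siNC, pair 1 and pair 2, mostly from Krt14, and with TGF-β to 141, 416 and 258 FPKM, with Acta2 at 0.490, 201.9 and 13.2. The 7 fibroblast markers summed to 5.50, 25.7 and 16.6 FPKM without TGF-β and to 11.7, 43.9 and 22.4 with it, with Thy1 at 0 in all 6 libraries. Pdgfra of this list lay at 3.21, 1.76 and 3.67 FPKM without TGF-β and at 6.79, 2.33 and 3.86 with it. The 3 leukocyte markers were lower with both pairs, at 6.48, 3.28 and 5.00 FPKM, and at 11.5, 5.10 and 6.99 with TGF-β. So were the 3 endothelial markers, at 0.585, 0.0262 and 0.0347 FPKM, and at 2.00, 0.0774 and 0.229 with TGF-β. The part of these markers in the Snai1 and other ratios was not tested.

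Hmga2 levels lay apart between the siRNA pairs. It measured 60.4 FPKM with siNC, 27.5 with pair 1 and 89.0 with pair 2 in the absence of TGF-β, which was 45.5% of siNC with pair 1 and 147.5% with pair 2. With TGF-β it measured 91.5, 31.5 and 90.4 FPKM, 34.4% of siNC with pair 1 and 98.8% with pair 2. The level with pair 2 was 3.24-fold and 2.87-fold that with pair 1, and a ratio at least as large was seen in 0.374% and 1.03% of 9094 genes. Sox4 and Twist1 stayed within 1.5-fold of siNC with both pairs. Sox4 measured 46.9, 66.0 and 55.8 FPKM with siNC, pair 1 and pair 2, and 96.2, 103.5 and 85.4 with TGF-β. Twist1 measured 21.3, 21.6 and 25.3 FPKM in the same order, and 12.0, 8.95 and 15.3 with TGF-β.

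Of the 6 factors under 5 FPKM in these libraries, Zeb2 passed the rule upward and Snai3 downward without TGF-β, where 9.15% and 10.6% of all genes reaching 1 FPKM did so, and Zeb1 and Zeb2 passed upward with TGF-β, against 7.33% upward and 9.88% downward. Zeb2 measured 0.680 FPKM with siNC, 1.26 with pair 1 and 1.22 with pair 2, ratios of 1.85 (1.30 to 2.67) and 1.80 (1.26 to 2.61), and with TGF-β 1.35, 3.79 and 2.06 FPKM, ratios of 2.80 (2.31 to 3.40) and 1.52 (1.22 to 1.91). Zeb1 measured 1.39, 1.47 and 1.30 FPKM without TGF-β and 1.78, 3.66 and 2.84 with it. The Zeb1 ratios with TGF-β were 2.05 (1.64 to 2.58) and 1.59 (1.25 to 2.03). Snai3 measured 2.43 FPKM with siNC (25 reads) and 0.857 and 0.686 with the pairs (12 and 9 reads), which was 2.83-fold (1.37 to 6.18) and 3.53-fold (1.60 to 8.60) lower. With TGF-β, Snai3 lay at 1.00, 0.985 and 0.471 FPKM and did not pass. Snai3 reached 1 FPKM only with siNC, so that it entered this set through the condition where it was high. Its place beside the 10.6% of genes thus does not set it apart from other genes. Snai2 lay between 1.15 and 3.40 FPKM and Foxc2 between 0.707 and 1.47 FPKM over the 6 libraries. Twist2 lay at 0.727, 0.892 and 1.14 FPKM with siNC, pair 1 and pair 2 and had no read in any library with TGF-β, where 3 reads would have given 0.209 to 0.294 FPKM.

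**Figure D4:**
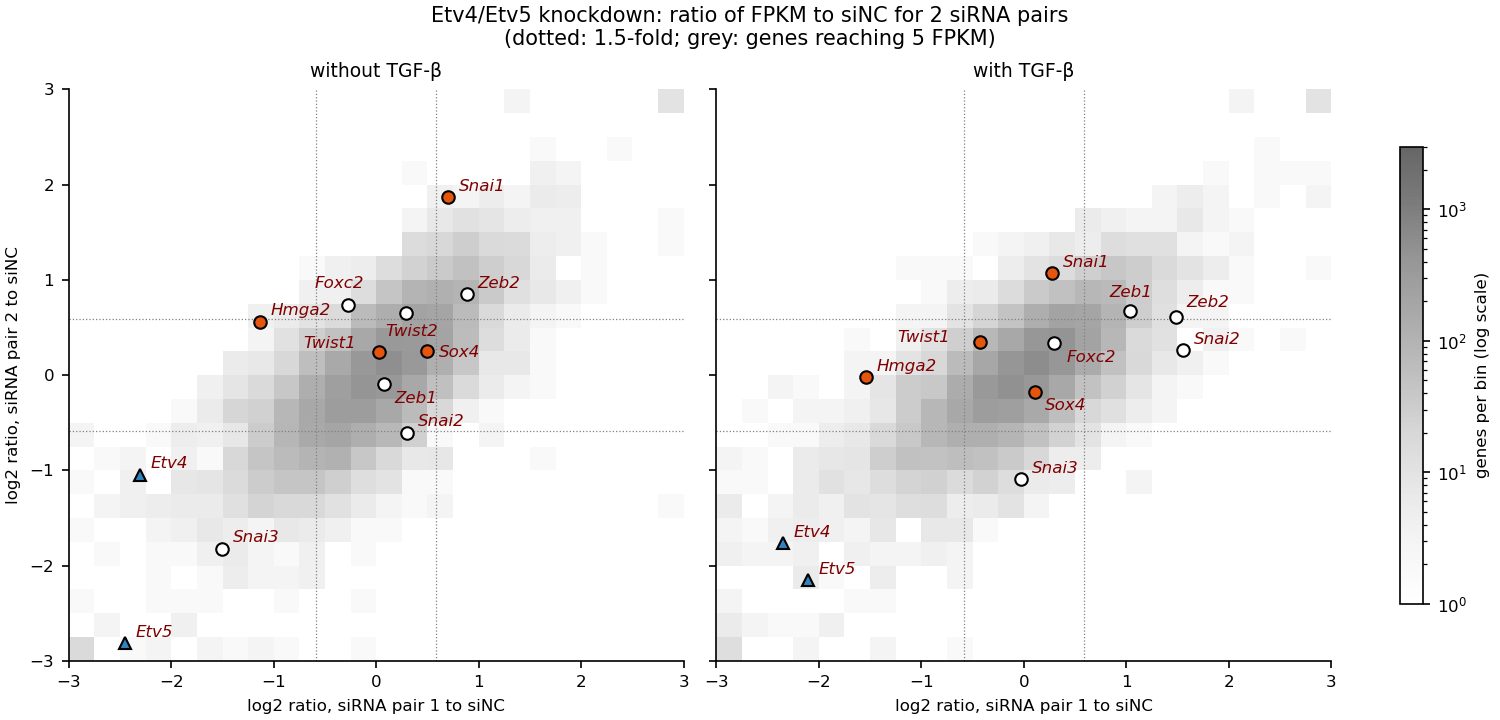
Ratio of FPKM to siNC on a log2 scale for siRNA pair 1 (horizontal axis) and pair 2 (vertical axis), without and with TGF-β, with filled circles for factors reaching 5 FPKM, open circles for lower ones, triangles for Etv4 and Etv5, and grey bins for the number of genes reaching 5 FPKM (genes beyond the axes are counted in the outermost bins and genes listed at 0 are left out). Snai1 lies above the 1.5-fold lines for both pairs without TGF-β, and Hmga2 lies far to the left of 0 for pair 1 only.

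In a secondary model over the 6 siRNA libraries, libraries of different conditions stood in for replicates. Knockdown called 0 of 4 factors reaching 5 FPKM and 0 of 10 reaching 1 FPKM, where 2.12% and 1.59% of genes were called. At an unadjusted p under 0.05 there were 1 and 3, with no share of all genes given for that level. Snai1 had the largest difference among the 4 (0.93 ± 0.38 on the log2 scale, limma adjusted p = 0.211), with the difference between the pairs contained in its error. TGF-β, with the siRNA as a block, called 2 of 4 factors against 4.17% of genes, Snai1 upward and Twist1 downward.

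Snai1 rose with TGF-β in each of the siRNA conditions, 4.32-fold with siNC, 3.22-fold with pair 1 and 2.49-fold with pair 2 (log2 difference 1.64 ± 0.18, limma adjusted p = 0.0175). Twist1 was 1.77-fold, 2.42-fold and 1.65-fold lower with TGF-β in the same order (log2 difference -0.88 ± 0.16, limma adjusted p = 0.0485). Neither call held without pair 1 (adjusted p = 0.182 for Snai1 and 0.278 for Twist1) or without pair 2 (0.0635 and 0.163). Sox4 was higher with TGF-β in each condition, at ratios of 2.05, 1.57 and 1.53, and did not pass (log2 difference 0.76 ± 0.15, limma adjusted p = 0.0599), although it passed with a pseudocount of 5 FPKM (0.0466) and with a mean-variance trend (0.0449). Hmga2 ratios were 1.52, 1.15 and 1.01 (limma adjusted p = 0.409).

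With the filter of 1 FPKM the model called Snai1 and Twist2 among 10 factors, against 3.30% of genes, and Twist1 lay just outside the threshold (limma adjusted p = 0.0543). Twist2 had 6, 10 and 12 reads without TGF-β for siNC, pair 1 and pair 2 and none with it, and the counting intervals of the ratios allowed a level as little as 2.05-fold, 2.28-fold and 2.70-fold lower with TGF-β (log2 difference -0.94 ± 0.14, limma adjusted p = 0.0351). It reached 1 FPKM only in the untreated library of pair 2, so that it entered the test through the state where it was high. The Twist2 call did not hold without pair 1 or without pair 2 (adjusted p = 0.252 and 0.204), with a pseudocount of 5 FPKM (0.209) or with a mean-variance trend (0.0729). Zeb1 ratios were 1.28, 2.49 and 2.18 and Zeb2 ratios 1.99, 3.02 and 1.69, and neither passed (limma adjusted p = 0.139 and 0.115).

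Genes whose pattern over the 8 untransfected libraries was most like that of a factor were identified by Pearson's r on log2(FPKM + 1), as a description over libraries that fall into 4 groups. For Snai1 they were Arid5a, Itsn2 and Ctsw (r = 0.981 for the first), for Twist1 Gsn, 9930012K11Rik and Mrpl38 (0.990), and for Sox4 Mtap4, Rhob and Trio (0.982). For Hmga2 they were Pgam5, 6530401N04Rik and Tmem158 (0.988). For Snai3 they were Evpl, Gas6 and Pdxk (0.997), and for Twist2 Tm9sf4, Gramd2 and Rac1 (0.994).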

How the data were processed

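The authors selected mRNA on oligo(dT) beads, sequenced strand-specific libraries on an Ion Proton, aligned reads to mm10 with TopHat2 2.0.11 and deposited FPKM from Cuffdiff (Cufflinks 2.2.0) with interval bounds, also in FPKM, in separate tables for untransfected and siRNA libraries, which were compared only within a table. The 10 members, the lists and the named genes (all members, list genes past the threshold, and the 3 genes most alike) were chosen with earlier results of these data known. Genes reaching 5 FPKM in a library of a table were fitted on log2(FPKM + 1) with limma 3.58.1 (R 4.3.3), 1 mean per group over all 8 libraries, with Benjamini-Hochberg adjustment, a threshold of 0.05 and no block. A filter of 1 FPKM served the lower factors. The fits were tested on simulated data, where not all changed genes were called, so that a factor that did not pass can still have changed. Read ratios were scaled by relative depth. Labels number the replicates 1 and 2 without giving their origin, so p-values measure the spread between these libraries. Overlapping antisense genes lie at Hmga2 and Zeb2. The alternatives tried are given in the closing section.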

Additional observations from a re-analysis of the deposited data

How the results depend on the processing

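For the differences of single factors, 59 results were recomputed in 897 alternatives (other pseudocounts, filters, scaling, fits and left-out libraries), of which 828 kept direction and side of the threshold, 50 lost a call, 9 gained one and 10 reversed. The Hmga2, Snai3 and Zeb1 differences between the lines were called under every alternative in which they were tested. The number of factors called in EpRas against EpH4 cells without TGF-β was 3, and 5 with the filter at 1 FPKM, 5 with no filter 1 with a mean of at least 10 FPKM, 2 by Tukey-Kramer on FPKM and 2 to 4 when leaving out 1 library (4 without untreated EpH4 replicate 1). With TGF-β it was 4, and 6 with the filter at 1 FPKM, 5 with no filter, 1 with a mean of at least 10 FPKM, 2 by Tukey-Kramer on FPKM, 3 to 4 when leaving out 1 library and 3 with a pseudocount of 0.1 or 5 FPKM, with only the groups compared or with either block. For TGF-β in EpH4 cells it was 2, and 1 with only the groups compared, 1 with the replicate number as a block (Sox4 adjusted p = 0.0607) 0 to 2 when leaving out 1 library and 3 by Tukey-Kramer, which added Snai3. For TGF-β in EpRas cells it was 0, and 1 by Tukey-Kramer, which also called Zeb1 below the filter. For TGF-β over the siRNA libraries it was 2, and 3 with a pseudocount of 5 FPKM or a trend, 1 with a pseudocount of 0.1 FPKM, 0 without siRNA pair 1 and 0 without pair 2, where 6 and 24 genes in all were called in place of 379. A rule of 2-fold in both pairs without TGF-β left 0 in place of 1 among the 4 factors reaching 5 FPKM. Snai3, below that level, still passed, but it reached 1 FPKM only with siNC, where it was high. Replicate numbers did not pair the libraries (r of deviations from -0.347 to 0.0785), and the block lowered the genes called for TGF-β in EpH4 cells from 855 to 547. Crossed numbers, tried after seeing the data, gave 872. The differences that changed sign were not called. Leaving out each library in turn gave log2 differences of -0.10 to 0.35 for Snai2 and -0.21 to 0.054 for Sox4 between the lines without TGF-β, -0.047 to 0.46 for Snai1 between the lines with TGF-β, and -0.30 to 0.15 in EpH4 and -0.14 to 0.61 in EpRas cells for the TGF-β effect on Snai2. Without pair 1 the knockdown difference was -0.13 for Snai2 and 0.27 for Hmga2, and without pair 2 it was -0.18 for Twist1. The cause of these changes was not tested. The all-gene counts behind the shares moved when 1 library was left out. At the lowest they fell from 1598 to 733 and from 1935 to 822 between the lines without and with TGF-β, without untreated EpRas replicate 1 and TGF-β-treated EpH4 replicate 1. They fell from 855 to 239 for TGF-β in EpH4 cells and from 73 to 10 for the interaction, both without TGF-β-treated EpH4 replicate 1, and from 348 to 127 for TGF-β in EpRas cells without untreated EpRas replicate 2 (45 with only the groups compared). At the highest, without 1 of the TGF-β-treated EpRas libraries, these counts were 2064, 2384, 1085, 127 and 413. The knockdown count of 193 fell to 0 without pair 1 and 100 without pair 2. Depth limited Foxc2, Zeb1 in EpH4 cells, and Snai3 and Twist2 in EpRas cells, each with fewer than 10 reads in the libraries of at least 1 group.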
